A study of Rattus norvegicus with 12 samples.

Results

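The genes described here encode the proteins of the cytosolic ribosome. They were taken by symbol: every probe whose platform symbol is Rpl or Rps followed by a number, with Rplp0, Rplp1, Rplp2 and Rpsa. This gave 67 probes of 66 genes, out of 13129 probes of 12925 genes with a single symbol on the rat array. By role, 37 probes measured large-subunit proteins, 24 small-subunit proteins, 3 the stalk proteins Rplp0, Rplp1 and Rplp2, and 3 the paralogues Rpl3l, Rpl7l1 and Rpl22l1. Rpl36al1 and Rpl37l1, whose symbols also end in l1, were counted with the large-subunit proteins. Rps19 had 2 probes and every other gene 1.

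Total RNA was measured on 12 arrays of 1 chip in 5 groups, all from rat cell lines. ASML is a metastasizing pancreatic adenocarcinoma line, and the vesicles it sheds (exosomes) were sampled from wild-type cells (wt exosomes, 3 arrays) and from cells with a knockdown of CD44v, the variant isoforms of the adhesion molecule CD44 (kd exosomes, 3 arrays). B12 is a lymph node stroma line, sampled without exosomes (2 arrays), after 24 h with wt exosomes (2 arrays) and after 24 h with kd exosomes (2 arrays). The headers of the untreated arrays also carry 24 h. The labels do not say whether the knockdown line is 1 clone, nor whether replicates came from separate cultures or exosome preparations, so p-values measure only the spread between these samples. ASML cells themselves were not among the samples, so a difference between exosomes and B12 cells cannot be told apart as vesicle against cell or as ASML against B12.

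A ribosome joins a small subunit, which reads the messenger RNA, to a large subunit, which forms the peptide bond, and each subunit holds many different proteins on a scaffold of ribosomal RNA. Ribosomal protein mRNAs are among the most abundant of growing cells and are made in step. In mammals they typically begin with a cytosine followed by an unbroken stretch of pyrimidines, the terminal oligopyrimidine tract, through which the kinase mTOR and the RNA-binding protein Larp1 control their translation.

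The tract stands at the start of the transcript, so the sequence around the annotated start was examined for a feature that the choice by symbol did not use. RefSeq promoter sequences of rat build GRCr8 matched 56 of the 66 genes. Each window below runs 5′ to 3′ on the gene's strand, with 25 bases before the annotated start and 25 bases from it onward, and the capitals mark the unbroken run of C and T that covers the start, where there is one. Rplp0, the brightest member in wt exosomes, is shown with Rps27, Rpl35a and Rpl10a as genes with the tract. Rps24 follows as the member with the largest difference between wt exosomes and untreated B12 cells after quantile normalization, and Rps13 as that with the largest between kd and wt exosomes, and Rpl22 stands beside its paralogue Rpl22l1, with Rpl7l1 as a further paralogue.
Rplp0: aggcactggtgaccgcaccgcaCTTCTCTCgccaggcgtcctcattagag
Rps27: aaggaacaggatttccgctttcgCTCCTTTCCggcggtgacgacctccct
Rpl35a: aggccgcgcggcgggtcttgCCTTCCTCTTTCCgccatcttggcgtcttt
Rpl10a: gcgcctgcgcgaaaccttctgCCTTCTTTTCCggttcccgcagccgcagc
Rps24: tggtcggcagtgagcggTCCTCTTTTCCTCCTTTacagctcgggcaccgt
Rps13: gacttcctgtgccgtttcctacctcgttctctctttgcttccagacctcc
Rpl22: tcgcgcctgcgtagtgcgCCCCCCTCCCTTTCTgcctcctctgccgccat
Rpl22l1: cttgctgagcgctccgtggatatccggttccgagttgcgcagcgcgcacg
Rpl7l1: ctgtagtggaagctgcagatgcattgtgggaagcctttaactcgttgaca

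In GRCr8 these windows lie at chr12:46718366-46718415 on the minus strand (Rplp0), chr2:177964582-177964631 on the minus strand (Rps27), chr11:81234997-81235046 on the minus strand (Rpl35a) and chr20:6390508-6390557 on the plus strand (Rpl10a). Those of Rps24 and Rps13 are chr16:96492-96541 on the plus strand and chr1:180009636-180009685 on the minus strand. Those of Rpl22, Rpl22l1 and Rpl7l1 are chr5:168117936-168117985, chr2:113683171-113683220 and chr9:21695693-21695742, all on the plus strand. The paralogues Rpl22l1 and Rpl7l1 have no pyrimidine at the annotated start, and neither has Rps13.

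Over all matched members, 19 of 56 (33.9%) had C at the annotated start with C or T at each of the next 4 bases, against 2.63% of the 33469 promoters in the table. A run of at least 8 pyrimidines over the start stood in 26 of 56 (46.4%), against 4.43% of all promoters. The motif CTTTC lay within 25 bases on either side of the start in 30 of 56 (53.6%, against 6.39% of all) when read on the transcribed strand. On the opposite strand it lay there in 1 of 56 (1.79%, against 6.45%). Overlap between these features was allowed, and a match is a description of the letters only.

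Before the results, 4 facts about the arrays bear on them. The knockdown target Cd44 gave a detected signal on each of the 12 arrays. Relative to the mean signal of its array it read 57.1%, 59.6% and 42.9% for wt exosomes, against 19.4%, 18.2% and 17.3% for kd exosomes. Its log2 difference of −1.43 ± 0.27 (SE) missed the threshold (limma adjusted p = 0.380). Replicate 3 of the kd exosomes stood apart: the correlation over all probes was 0.986 between kd replicates 1 and 2, but 0.899 and 0.891 between these and replicate 3. The B12 arrays of replicate number 1 and of number 2 stood apart in every group. Cxcl12, a chemokine of stroma, had a signal over background of 181.9, 260 and 305 on the number 1 arrays and 29879, 34025 and 35258 on the number 2 arrays, and the tetraspanin Tspan8 ran the other way (24797, 20167 and 17220 against 1831, 5031 and 1094). Exosome arrays were also dimmer than cell arrays, with a mean signal over background of 108, 173 and 138 (wt), 299, 244 and 100.1 (kd) and 505 to 588 (B12).

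The labelled cell types were set against their markers. Of 7 epithelial markers, 5 were detected on all 6 exosome arrays, and Epcam had a signal of 514 to 1331 there and was undetected on all B12 arrays. But 4 of the 7 (Cdh1, Krt8, Krt19 and Tspan8) were detected on all 6 B12 arrays, so the list did not separate exosomes from B12 cells. Tspan8 read 300 to 684 in exosomes and 1094 to 24797 in B12 cells. Cdh1 was detected on 2 exosome arrays and Krt18 on 1. Of 8 stroma markers, 5 were detected on all B12 arrays and 0 on all exosome arrays, while Thy1 was detected on no array. Of 6 leukocyte markers, Ptprc, Cd3e and Cd3d were detected on no array, Cd14 on all 12 (signal 1416 to 9279 on B12 arrays), Cd68 on all 6 B12 and 4 exosome arrays, and Itgam on 5 exosome and 2 B12 arrays. Of 6 blood and platelet genes, 3 (Hbb, Pf4 and Ppbp) were detected on all exosome arrays, and together the 6 took 0.0241% to 0.0871% of the signal in wt exosomes, 0.00228% to 0.188% in kd exosomes and at most 2.13e-04% in B12 cells. Gp9 of that list was detected on no array.

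Ribosomal protein mRNAs were among the brightest signals in both exosomes and cells, and took a larger share of the signal in exosomes. Between 60 and 63 of the 67 probes were detected on each exosome array and between 62 and 64 on each B12 array. Of the summed signal over background, the members took 16.02%, 14.5% and 14.4% in wt exosomes. In kd exosomes they took 10.2%, 11.2% and 15.9%, and in untreated B12 cells 8.01% and 7.51%. The treated B12 arrays lay between 7.68% and 7.98%. All 6 exosome arrays thus lay above all 6 B12 arrays, and the kd arrays spread over a wider range than the wt arrays.

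Both subunits contributed. The large-subunit and stalk probes with the paralogues took 8.95% ± 0.60 and the small-subunit probes 6.05% ± 0.29 of the signal in wt exosomes (SD, n = 3). Among the brightest 1% of probes (220 probes), 44, 43 and 42 were members for wt exosomes, 39, 41 and 44 for kd exosomes and 34 to 37 for B12 cells. By comparison, the 60 probes of mitochondrial ribosomal proteins, which serve the separate ribosome of the mitochondrion, took 0.656% to 1.02% of the signal on exosome arrays and 0.591% to 0.630% on B12 arrays.

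**Figure D1:**
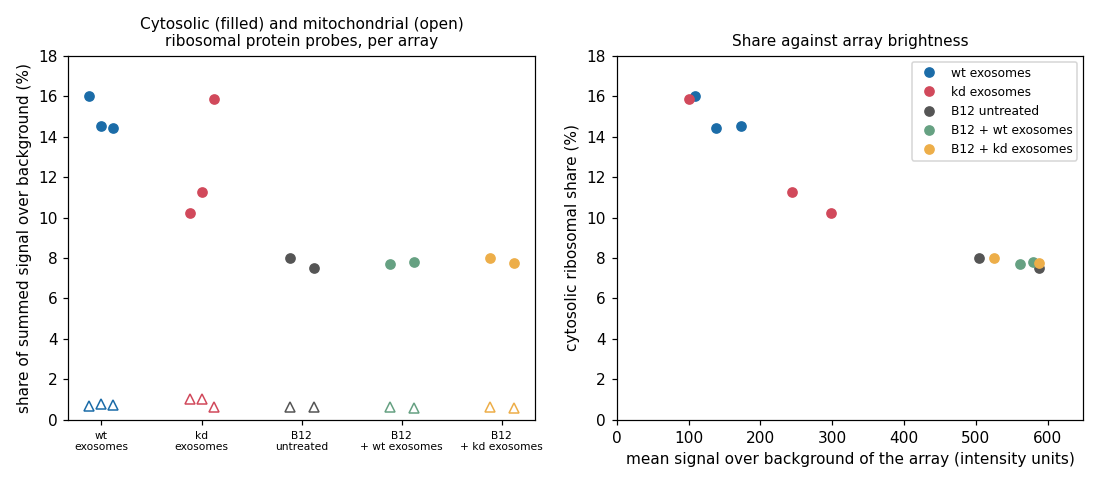
Left, the share of each array's summed signal over background (%, from 0) held by cytosolic (filled) and mitochondrial (open) ribosomal protein probes, 1 point per array in the 5 groups. Right, the cytosolic share against the array's mean signal over background (intensity units); the exosome arrays sit between 10.2% and 16.02%, above all B12 arrays, and the share is lower on brighter arrays.

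The share ran with array brightness. The dimmest arrays, kd replicate 3 and wt replicate 1, had mean signals of 100.1 and 108 and the highest shares, 15.9% and 16.02%, and the brighter kd replicates 1 and 2 had the lowest shares of the exosome arrays. The brightest probe on each array read between 30650 and 42806 over the 12 arrays, a narrower range than that of the mean signal, and the deposited columns used here hold no saturation flags. The part of array brightness in the share was not tested.

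Each probe's signal was also divided by its array's mean signal. Of 60 members detected on all wt exosome and untreated B12 arrays, 47 had a higher multiple on every wt exosome array than on either untreated array, 7 a lower one and 6 overlapped. For all 7121 probes detected on the same arrays, these percentages were 34.9% higher and 40% lower. Among members with a mean signal of at least 5000 over all arrays, a limit chosen after the values were seen, 39 of 42 were higher and 0 lower, and the median ratio of the multiples was 1.79. Among the 260 other probes past that limit, which 1 group alone can meet, 43.1% were higher and 40.4% lower, with a median ratio of 1.06. With the limit set in both groups, 33 of 35 members (94.3%) were higher and 0 lower, with a median ratio of 1.86, but so were 87.5% of 72 other probes, with 1.39% lower and a median ratio of 1.73. The dimmer members divided, with 8 of 18 higher, 7 lower and a median ratio of 1.14. How far the bright members differed from other bright probes thus depended on how the limit was set.

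**Figure D2:**
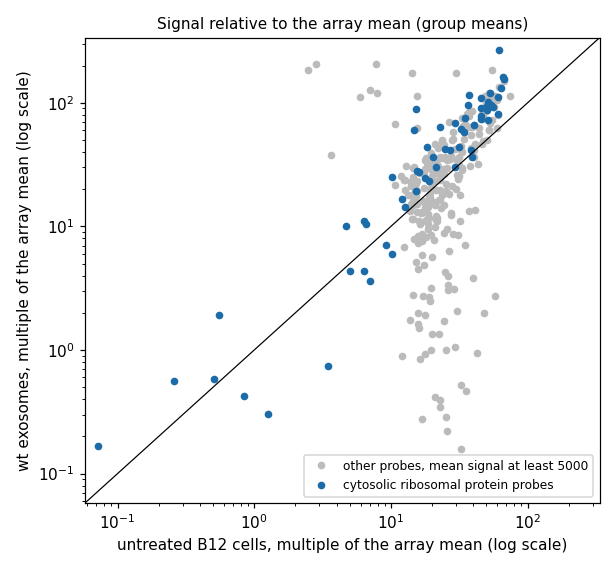
Signal as a multiple of the array mean, untreated B12 cells (x, mean of 2 arrays) against wt exosomes (y, mean of 3 arrays), both on log scales, for members detected on all 5 arrays (blue) and for other probes with a mean signal of at least 5000 over all arrays (grey); the line marks equal multiples. Bright members lie mostly above the line, with a median ratio of 1.79 against 1.06 for the grey probes; among probes with at least 5000 in both groups the ratios were 1.86 and 1.73.

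The stalk proteins, which recruit the elongation factors to the large subunit, differed in the brightness of their probes. Rplp0, the base of the stalk, was the brightest of all probes on each wt exosome array, with a signal of 35024, 38458 and 35815, against 36903, 37335 and 28070 in kd exosomes, 29445 and 37731 in untreated B12 cells and 31330 to 37045 in treated ones. As a multiple of the array mean this was 323, 222 and 260 in wt exosomes, 124, 153 and 280 in kd exosomes and 53.2 to 65.9 on the B12 arrays. Its signals overlapped between exosomes and cells, and its multiples did not overlap. Rplp1 had multiples of 83.0, 69.9 and 73.7 in wt exosomes, 36.9, 40.9 and 76.5 in kd exosomes and 32.9 to 39.2 in B12 cells. Rplp2 lay near background everywhere (signal 6.59 to 62.5) and was not detected on kd replicate 3.

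Of the small-subunit proteins, Rps29, a zinc-binding protein of the subunit's head, had a higher unscaled signal on all 6 exosome arrays than on all 6 B12 arrays. Its signal was 10648, 14119 and 12043 in wt exosomes, 17624, 17369 and 9667 in kd exosomes, 7753 and 8825 in untreated B12 cells and 8581 to 9591 in treated ones. Rps24, which in humans is mutated in Diamond-Blackfan anaemia, was dimmer, with 212, 307 and 285 in wt exosomes, 219, 152 and 305 in kd exosomes and 253 to 377 in B12 cells. Unlike those of Rps29, the unscaled signals of Rps24 overlapped between exosomes and cells. Rpl36al1, related to Rpl36a of the large subunit, had a signal of 6037, 10638 and 8885 in wt exosomes and 7128 and 9121 in untreated B12 cells, and as a multiple 55.7, 61.5 and 64.4 against 14.1 and 15.5.

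At the low end, the probes of Rpl11 and Rpl34 and 1 of the 2 Rps19 probes were detected on no array, and Rpl12 on 2 B12 arrays only. No level is given for these genes. The second Rps19 probe was detected on 6 of 12 arrays, at a signal of at most 24.9. Rpl36a was detected on all B12 arrays (31.4 to 43.3), on 1 kd exosome array and on no wt exosome array. Rpl22l1, the paralogue of Rpl22, had signals of −1.91, 9.78 and 1.68 in wt exosomes, 28.2, 24.0 and −6.88 in kd exosomes and 114 to 206 in B12 cells. Its B12 signals all lay above its exosome signals. The rat gene table of GRCr8 lists 871 ribosomal protein pseudogenes, and the probe sequences were not used here, so reads of near-identical copies in a probe's signal were not tested.

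Wild-type exosomes and untreated B12 cells were then compared after quantile normalization, which gives every array the same distribution of signals, with limma, over the probes that every array of 1 group or more detected. At an adjusted p under 0.05, 17 of 63 tested members were higher in exosomes and 6 lower, 36.5% in all, where 35.2% of all 12231 probes tested passed (18.1% higher and 17.1% lower). The share of members that passed was thus near the background, with a larger part of it on the higher side (27.0% of members) and a smaller part on the lower side (9.52%). The median log2 difference was 0.16 over the members and 0.05 over all probes. Of the members, 32 were higher and 13 lower with groups that did not overlap, against 35% and 31.8% of all probes. Without scaling, only 1 of the 60 members detected on all these arrays, Rps29, was higher on every wt exosome array.

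Among those higher, Rps29 had normalized log2 levels of 14.30 ± 0.04 in wt exosomes (SD, n = 3) and 12.44 ± 0.06 in untreated B12 cells (SD, n = 2), a difference of 1.87 ± 0.11 (SE, limma adjusted p = 2.17e-06). Rps24 had the largest difference, 2.51 ± 0.64, from 10.14 ± 0.19 against 7.63 ± 0.14 (adjusted p = 0.0135), and it did not pass when either untreated array was left out, where its adjusted p was at least 0.0591. Scaled to equal medians, Rps24 lay at 0.20 (adjusted p = 0.725), below Rps29. Rpl36al1 followed at 1.51 ± 0.15 (adjusted p = 6.67e-05). Other small-subunit members higher in exosomes were Rps13 (1.47), Rps23 of the decoding centre (1.20), Rps9 (1.13), Rps27 (0.83) and Rps3a (0.62). On the large subunit, Rpl24 (1.00), Rpl18 (0.90), Rpl41, the shortest ribosomal protein (0.69), Rpl36 (0.65), Rpl14 (0.55), Rpl32 (0.52), Rpl4 (0.52), Rplp0 (0.43) and Rpl9 (0.32) were higher. Rplp0 passed narrowly (adjusted p = 0.0472): it did not pass without background correction, without the filter or without any 1 of the wt exosome arrays, and equal-mean scaling put its difference at 2.09. As the brightest probe of each wt exosome array, it was given the same top level there by quantile normalization (15.23, SD 0). Its difference and spread after that normalization are thus limited by its rank.

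Among those lower in exosomes, Rpl22l1 was detected on 1 of 3 wt exosome arrays, so its fitted difference of −2.06 ± 0.53 (adjusted p = 0.0142) rests on signals mostly at background. Rpl15, a core protein of the large subunit, lay at −1.50 ± 0.48 (adjusted p = 0.0343). Rpl15 had signals of 19.9, 76.0 and 39.6 in wt exosomes and 508 and 886 in untreated B12 cells, with no overlap. Rpl36a, not well above background on any wt exosome array, was at least 1.65-fold higher in untreated B12 cells (limma adjusted p = 0.0246). Rpl36a and Rpl22l1 entered the test only through the B12 groups, where they were high, so their p-values are no support for a direction. Rps21 (−0.54), Rpl17 beside the peptide exit tunnel (−0.50) and Rpl7a (−0.37) were the other 3 of the 6 lower members. Left out in turn, the untreated arrays 1 and 2 took the count of lower members from 6 to 0 and 1, where 11.4% and 11.0% of all probes were lower. In the same way wt exosome arrays 1 and 3 took it to 2 and 3, where 12.3% and 12.6% of all probes were lower. Without untreated replicate 1 the calls totalled 12 of 64 members (18.75%), near the 19.2% of all probes that passed. Without kd replicate 3, an array of neither group but part of the normalization, the filter and the spread, 25 members were higher and 7 lower (25.3% and 21.9% of all probes).

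The paralogues were set beside their parent genes. Rpl22 had a normalized log2 level of 14.19 in both wt exosomes and untreated B12 cells (adjusted p = 0.998), where Rpl22l1 was lower in exosomes. Rpl3 lay at −0.08 ± 0.12 and Rpl3l, the form of striated muscle, at 1.76 ± 0.67 (adjusted p = 0.0630). Before normalization the signals of Rpl3l ran the other way, at 55.4, 88.2 and 90.7 in wt exosomes against 153 and 124 in untreated B12 cells. This was not particular to Rpl3l: Rps23, called higher, had unscaled signals of 2972, 4119 and 3395 against 5251 and 5783. Rpl7 and Rpl7l1 lay at −0.29 ± 0.15 and −0.31 ± 0.21, and neither passed. Rpsa, also known as a laminin receptor, lay at −0.05 ± 0.12 and Rps4x at −0.21 ± 0.14. Members whose start carried C followed by at least 4 pyrimidines had a median of 0.22 (18 probes) and the other matched members one of 0.15 (35 probes).

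**Figure D3:**
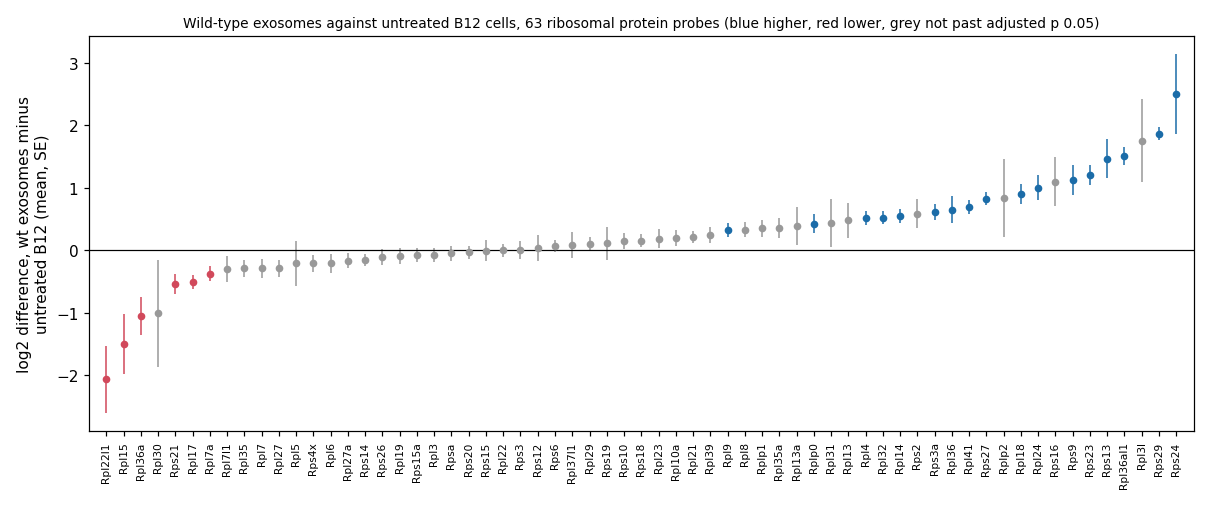
Log2 difference of wt exosomes (3 arrays) minus untreated B12 cells (2 arrays) for each of the 63 tested member probes, with bars of 1 SE, in order of size. Blue marks 17 members higher and red 6 lower at a limma adjusted p under 0.05, and the differences run from −2.06 (Rpl22l1) to 2.51 (Rps24).

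These counts depended on the scaling. Scaled to equal mean signal in place of quantiles, 41 members were higher and 4 lower, with a median of 0.75, where 18.1% and 21.1% of all probes passed and their median was −0.13. Scaled to equal medians, 2 members were higher and 34 lower, with a median of −0.82, where 51.4% of all probes passed (6.17% higher and 45.3% lower) and their median was −1.18. Under each of the 3 scalings the members' median lay above that of all probes, and Rps29 was higher under each of them (1.87, 2.52 and 0.93). These medians set mostly bright members against probes of every brightness. Among probes with a mean signal of at least 5000 in both groups, the multiples of the array mean had median ratios of 1.86 for members and 1.73 for others.

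Other genes of the ribosome were taken from lists. Rack1 and Fau, 2 further proteins of the small subunit, were both lower in exosomes (−0.54 and −0.42, limma adjusted p = 0.00416 and 0.0147). Of 58 mitochondrial ribosomal protein probes, 33 were higher and 0 lower, with a median of 0.94, where 18.1% of all probes were higher and 17.1% lower. Of 48 ribosome biogenesis genes, 22 were higher and 1 lower, led by nucleolin (Ncl, 3.06 ± 0.18), Mrto4 (1.93 ± 0.19), Nop58 (2.12 ± 0.27) and Rrp9 (1.79 ± 0.24). Of 10 other genes known for a terminal oligopyrimidine tract, 1 was higher (Naca, 0.37 ± 0.12) and 0 lower. Without passing, Hnrnpa1 lay at 0.91 and the elongation factors Eef1g and Eef2 at −0.53 and −0.34. Of 12 regulators of ribosomal protein synthesis, Akt1 (1.00), Rps6kb2, an S6 kinase (2.63), and Myc (1.89) were higher, and Mdm2 (−1.35) and Max (−1.53) lower. These counts turned with the scaling too. Scaled to equal means, 8 mitochondrial probes were higher and 1 lower, and likewise 8 and 1 biogenesis genes, with 18.1% and 21.1% of all probes passing. Scaled to equal medians, 0 and 1 were higher and 24 and 19 lower, with 6.17% and 45.3% of all probes passing. Rack1 and Fau passed as lower under equal medians, and neither passed under equal means.

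Between kd and wt exosomes, no member passed. Of 60 members tested, 0 were called, as were 0% of all 8699 probes, and the lowest adjusted p among members was 0.380 (limma). At an unadjusted p under 0.05, 11 members (18.3%) were lower and 0 higher in kd exosomes, where 8.04% of all probes were lower and 5.02% higher. The groups did not overlap for 10 lower and 4 higher members (11.5% and 6.43% of all probes). The median log2 difference was −0.11 over the members and −0.04 over all probes. Scaled to equal medians, 0 members were lower at that p (3.06% of all probes) and the members' median was 0.18, against 0.36 over all probes. Scaled to equal means, 9 members were lower (5.58% of all probes) and the members' median was −0.27, against 0.02 over all probes. Leaving out any 1 wt array, or kd replicate 1 or 2, gave 5 or 6 lower members, where 2.32% to 4.74% of all probes were lower.

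The members at the low end ranged in brightness from Rps16 (signal 25.6 to 131 in exosomes) to Rpl4 (6270 to 11036). Rps13, a small-subunit protein at the interface with the large subunit, had normalized log2 levels of 10.99, 10.86 and 10.90 on the wt arrays and 9.48, 9.28 and 10.62 on the kd arrays, a difference of −1.13 ± 0.33. All 3 kd arrays lay below all wt arrays, with kd replicate 3 nearest to them. Rps24 had 8.87, 8.53 and 8.87 against 6.91, 6.90 and 9.52, a difference of −0.98 ± 0.67. For Rps24 the groups overlapped, since kd replicate 3 lay above every wt array. Rps16 (−0.90 ± 0.25), Rps9 (−0.89 ± 0.27), Rpl24 (−0.86 ± 0.23), Rpl10a (−0.50 ± 0.14) and Rpl4 (−0.42 ± 0.14) were also lower on every kd array, at an adjusted p of 0.380 each. Those higher on every kd array were Rpl27 (0.30 ± 0.13), Rpl21 (0.21 ± 0.12), Rps6, the target of the S6 kinases (0.18 ± 0.12), and Rps10 (0.12 ± 0.12).

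Left out, kd replicate 3 decided the outcome. Without it 22 of 61 members were lower and 8 higher in kd exosomes (36.1% and 13.1%), where 17.4% of all 10169 probes were lower and 25.2% higher. This array was left out for its values, so these p-values are no test of the knockdown. Rps24 then lay at −1.87 ± 0.15 (adjusted p = 2.27e-05), Rps13 at −1.53 ± 0.10 (adjusted p = 5.95e-06), Rpl13a at −1.32 ± 0.09 and Rps9 at −1.20 ± 0.10. Rpl7l1 lay at 0.72 ± 0.09, Rpl22l1 at 0.80 ± 0.21 and Rps4x at 0.51 ± 0.11. Rpl22l1, counted among the 8 higher, was not tested with replicate 3 included. It entered only through kd replicates 1 and 2, which detected it, so its value is no support for a direction. Both subunits stood on both sides.

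**Figure D4:**
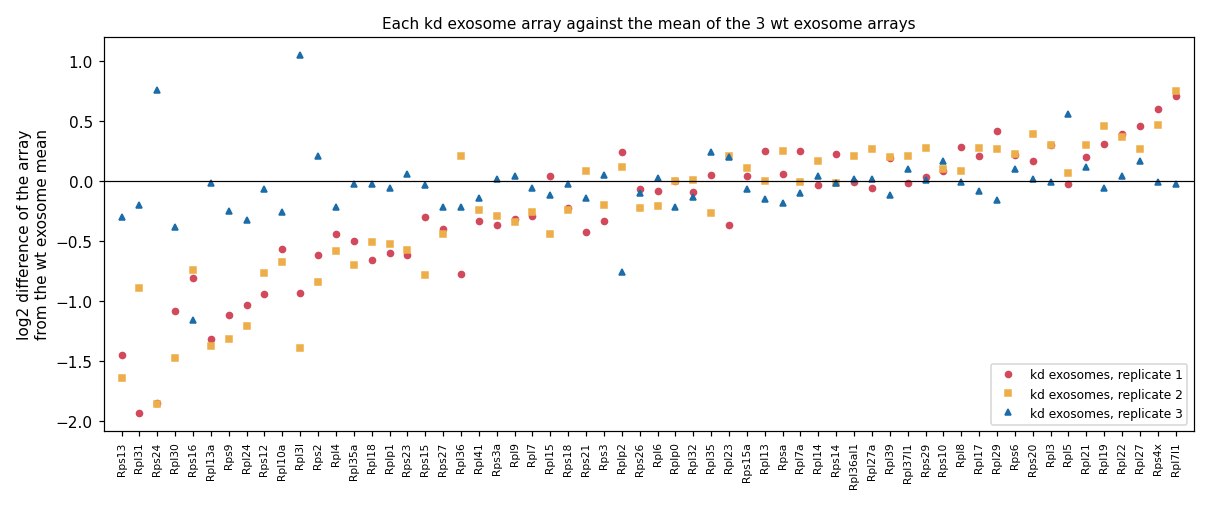
Normalized log2 level of each kd exosome array minus the mean of the 3 wt exosome arrays, for the members tested, in order of the mean. Replicates 1 (circles) and 2 (squares) reach about −1.9 for Rps24, while replicate 3 (triangles) lies above 0 for Rps24.

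Other values moved with the same arrays. On kd replicates 1, 2 and 3 the platelet gene Pf4 had signals of 41.7, 43.4 and 523, against 302, 363 and 464 in wt exosomes, and Hbb, a globin, 54.1, 34.2 and 1337 against 137, 201 and 527. The mean array signal was also higher on kd replicates 1 and 2 than on the other exosome arrays. Their part in the members' differences was not tested. As a multiple of the array mean, Rps13 read 10.3, 9.88 and 9.83 for wt exosomes and 4.68, 4.01 and 7.09 for kd exosomes, with no overlap.

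Of the companion lists, 0 genes passed between kd and wt exosomes. At an unadjusted p under 0.05, 7 of 56 mitochondrial ribosomal protein probes were lower and 1 higher, and 5 of 43 biogenesis genes were lower and 1 higher, where 8.04% of all probes were lower and 5.02% higher. Their medians were −0.01 and 0.03.

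In B12 cells, exosomes were followed by no called change in any member. In each of the 3 comparisons 0 of 63 members were called, as were 0% of all 11631 probes. At an unadjusted p under 0.05 the members called were 0 for wt exosomes against no treatment (2.8% of all probes, 1.07% higher and 1.74% lower), 0 for kd exosomes against no treatment (2.46%, 1.23% each way) and 1 for kd against wt exosomes (1.99%, 1.31% higher and 0.679% lower). That 1 was the Rps19 probe, which no array with wt exosomes detected and which was at least 1.61-fold higher after kd exosomes (adjusted p = 1), with signals of 8.69 and −4.22 after wt exosomes and 18.8 and 24.9 after kd exosomes. This probe entered the test only through the group with kd exosomes, where it was high, so its p-value is no support for a direction. The comparisons with no treatment share the untreated arrays.

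The members' levels in B12 cells differed little. With wt exosomes the median log2 difference from untreated cells was −0.03, with kd exosomes it was 0.01, and between both treatments 0.02, and all probes had medians of 0.01, 0.01 and 0.00085. Within 0.5 log2 units of 0 lay 62, 62 and 61 of 63 members (98.4%, 98.4% and 96.8%), against 87.3%, 87.0% and 90.3% of all probes. The members' median signal stood at percentile 99.05 to 99.22 of the B12 arrays, and other probes of like brightness were not set beside them here. A fit with 2 arrays a group has little power, and a p that misses the threshold does not show that the levels were equal. The typical standard error of a member's difference was 0.15.

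Among members whose groups did not overlap, Rpl14 had the smallest p of those higher after wt exosomes, at 0.19 ± 0.13, and lay at 0.24 ± 0.13 after kd exosomes. Its signals were 10759 and 11331 untreated, 12920 and 13569 with wt exosomes and 12925 and 14746 with kd exosomes. Rps3a lay at 0.15 ± 0.13 and 0.21 ± 0.13. On the lower side, Rps2 lay at −0.28 ± 0.15 after wt exosomes, and Rps15 at −0.23 ± 0.13 and Rps26 at −0.27 ± 0.17 after kd exosomes. Groups did not overlap for 16, 19 and 17 members in the 3 comparisons (24.2%, 22.2% and 20.5% of all probes, the last 11.2% higher and 9.32% lower), so these counts were near the background. Rps29 had a signal of 8581 and 9064 after wt exosomes, against 7753 and 8825 in untreated cells, which overlap.

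The replicate numbers separated some members more than the treatments did. Rpl30, a large-subunit protein, had signals of 2897, 3485 and 3636 on the number 1 arrays and 666, 1419 and 559 on the number 2 arrays. Rps16 ran the other way, with 145, 187 and 173 against 429, 244 and 301. For both genes the numbers did not overlap, and in bulk RNA fewer cells of a type and less RNA per cell cannot be told apart. Of the stroma markers, the summed share ran from 0.0378% to 0.654% over the B12 arrays, and of the epithelial markers from 0.0299% to 0.499%, and their part in these differences was not tested. Such a split was seen for 16 of 63 members (25.4%), 8 each way, against 39.3% of all probes. With the replicate number as a block, the count of members called stayed at 0 in all 3 comparisons.

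**Figure D5:**
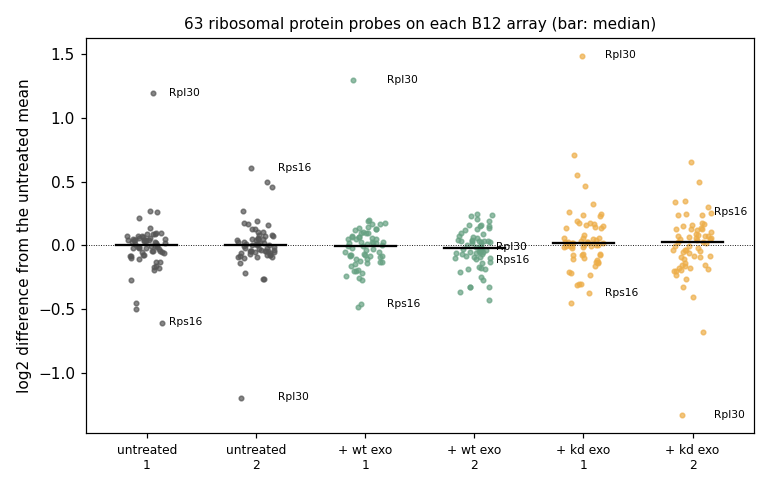
Normalized log2 level of the 63 tested member probes on each B12 array minus the mean of the 2 untreated arrays; bars mark the medians, which lie near 0 on all 6 arrays. Rpl30 is high on the number 1 arrays and Rps16 is low on them relative to number 2.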

How the data were processed

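For every probe, the authors deposited an intensity per array before normalization, with its p-value, per the file headers. The software that made them is not named there. The p-value was read as two-sided against background, and a probe counted as detected at p under 0.05 above background (the median intensity of probes with p above 0.9). Of 23365 rows, 848 without identifier and 571 with a repeated one were left out, leaving 21946 probes, of which 8817 have no symbol. The authors' deposited value table, linear intensities normalized by a method not stated (column medians 119.9 to 145, rank correlation with the raw values 0.991 to 0.9999), served as an alternative. Gene IDs of 66 member probes matched the GRCr8 table, and 0 symbols differed.

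Intensities were corrected with limma 3.58.1 in R 4.3.3 (normal-exponential model, offset 16), quantile normalized and taken as log2, over all 12 arrays for exosomes against cells and otherwise over the 6 exosome or 6 B12 arrays. lmFit and eBayes with a trend gave two-sided p-values with Benjamini-Hochberg adjustment over all probes tested. A bound sets the bright group's mean against the higher of the dim probe's own level and the lowest detected level per array. The fits were tested on simulated data. Alternatives were background correction, scaling, the deposited values, no filter, the replicate block and each array left out; equal-mean scaling was added after seeing the data except for exosomes against cells, as were the brightness limit in both groups, the other scalings of the companion lists and the counts at unadjusted p under other settings.

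Deviations from group means correlated at 0.773 to 0.799 between B12 arrays of the same number, which the data and not the labels give; exosome arrays were not paired (−0.21 to 0.46). The members, lists and markers were chosen with earlier results of these data known. Members named are the 6 with the smallest p each way whose groups do not overlap, the stalk proteins, Rpsa, Rps24, Rps13, the paralogues with their parents and those with undetected probes; others called, and those named for the number of the B12 array, were named after their values were seen.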

Additional observations from a re-analysis of the deposited data

How the results depend on the processing

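For wt exosomes against untreated B12 cells, the count of members called (23) became 36 under median scaling (2 higher, 34 lower) and 45 under total scaling (41 higher). Of all probes, 35.2% were called at first, 51.4% under median scaling and 39.1% under total scaling. Leaving out 1 array gave 12 to 32 members called, 12 to 25 higher and 0 to 7 lower, where 18.1% to 47.2% of all probes were called. With no background correction, the deposited values, no filter and the replicate block, the higher and lower counts stayed within 1.5 times, the block giving 16 and 5. Changes of sign were looked for only among members named in this comparison, so the lists that follow are not complete. Under median scaling, where all probes moved to −1.18, these called members, or members called under it, changed sign: Rps27 (−0.13), Rps23 (−0.30), Rpl18 (−0.37), Rpl22 (−0.84), Rpl37l1 (−2.11), Rps13 (−0.49), Rpl32 (−0.23), Rpl9 (−0.34), Rps9 (−0.80), Rps3a (−0.82), Rpl4 (−0.40), Rpl14 (−0.77), Rpl36 (−0.78) and Rpl24 (−0.94). Rplp1 (−0.49), Rpl3l (−0.36) and Rplp2 (−0.11), called neither there nor after quantile normalization, also changed sign. Under total scaling Rpl17 (0.38), Rpl7a (0.062), Rpl3 (0.82), Rps4x (0.85) and Rpsa (0.82) were among those that did. The cause was not tested. For kd against wt exosomes, 0 members were called under every alternative run except without kd replicate 3 (range 0 to 30 called, 0 to 8 higher, 0 to 22 lower); the cause was not tested. The B12 counts were 0 under every alternative run, with the replicate block included. The chip as a block was not run, since the headers show 1 chip. The number of arrays limits the precision, and members near background (Rplp2, Rps19, Rpl36a, Rpl22l1) have the least signal over background.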
